A study of Mus musculus with 6 samples.

Results

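Guanylate-binding proteins were followed in 6 melanomas, 3 grown from vector control B16 cells and 3 from ATM knockout (ATM KO) B16 cells. The members were the 9 genes Gbp2, Gbp3, Gbp4, Gbp5, Gbp6, Gbp7, Gbp8, Gbp9 and Gbp10, taken by symbol from the 55536 genes listed for each tumor, and all 9 were found and had enough counts to be tested. B16 is a pigmented melanoma line of C57BL/6 origin. The cells were placed under the skin of C57BL/6J mice, and RNA was taken from the whole tumor on day 13. Both groups carried the same cell line and host strain and differed, as far as the labels go, only in the genotype of the injected cells; how ATM was disrupted, whether the knockout cells were a clone, and whether each tumor had its own mouse are not stated. Host and tumor share the strain background, so reads of infiltrating cells and of melanoma cells were counted together, and in such bulk samples fewer cells of a type and less RNA per cell cannot be told apart. The p-values set the difference between the groups against the spread of these tumors within each group. They do not cover variation between knockout clones, or between mice if tumors shared a mouse.

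Guanylate-binding proteins are large GTPases of the dynamin superfamily. They are made in quantity when interferon gamma, or more weakly type I interferon, reaches a cell, in part through the factor IRF1. In mouse cells they assemble on the vacuoles of intracellular parasites and on bacteria, open these compartments, and pass their contents to inflammasomes that start pyroptosis. In tumors their transcripts are often read as a trace of interferon exposure in both cancer cells and leukocytes. The mouse genes lie in a cluster on chromosome 3 and another on chromosome 5.

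The series title places the experiment in work on ATM loss, leakage of mitochondrial DNA and cGAS-STING signaling, a route to interferon, so the comparison of ATM knockout with vector control tumors asks here whether these interferon-induced transcripts differ. The libraries held 22101124 to 29037715 counts on genes. Counts of Atm itself ranged from 2306 to 2508 in control and from 2371 to 3692 in knockout tumors (log2 fold change 0.10 ± 0.13, SE; edgeR adjusted p = 0.707), and do not check the genotype, since host cells carry the gene and the disrupted part is not given. Melanocyte lineage markers summed to between 18800 and 27200 CPM (counts per library, scaled to a common TMM-adjusted total), and each of the 7 was above the filter. Vector control tumor 1 stood apart: all 6 pan-leukocyte markers and all 10 monocyte and macrophage markers were lowest in it.

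Promoter sequence was available for 4 of the 9 members, all on chromosome 3, and for their relative Gbp2b. It is shown because each holds the core of an interferon-stimulated response element, the site bound by IRF factors after interferon, close to the RNA start. The core was searched as GAAA, any 2 bases and GAAA again, on both strands of the 300 bases around each RNA start (RefSeq, GRCm38.p6). Every match found lay on the strand opposite to the gene, so it reads as the reverse complement in the lines below, in capitals, within 30 bases of the gene's own strand.
Gbp2: actcttttagTTTCACTTTCactgtcttaa
Gbp7: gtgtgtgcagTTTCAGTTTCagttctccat
Gbp3: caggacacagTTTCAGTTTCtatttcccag
Gbp5: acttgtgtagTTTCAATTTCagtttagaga
Gbp2b: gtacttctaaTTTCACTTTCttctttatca

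The Gbp2 window is chr3:142620594-142620623, and its core begins 59 bases before the RNA start. In Gbp7 (chr3:142530273-142530302) the core begins 53 bases before the start. In Gbp3 (chr3:142559989-142560018) it begins 45 bases before, with another, overlapping match 39 bases before, and the promoter of a second Gbp3 start holds no match. In Gbp5 (chr3:142496759-142496788) and Gbp2b (chr3:142594700-142594729) the core lies farther out, at 165 and 137 bases. All these distances count from the RefSeq starts, at 142620663 for Gbp2 and 142496934 for Gbp5. The gene bounds given below come from GENCODE M21, which starts these genes earlier, at 142620602 and 142493978. The cores of Gbp2 and Gbp5 therefore lie inside those bounds. Over all 32851 mouse promoters of the same length, 3.44% held such a core. A gamma activation site, searched as TTCNNNGAA, was matched in the promoters of Gbp5 and Gbp7, at 2 positions each, and in 8.3% of all promoters; no match overlapped the cores shown. These are matches of letters and not measured sites.

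No member passed a test between ATM knockout and vector control tumors, and the intervals of several were wide. Of 9 tested, 0 passed the edgeR quasi-likelihood test at an adjusted p below 0.05, against 4.96% of all 15696 genes tested (2.21% higher and 2.75% lower in knockout tumors). Without adjustment 0 members had a p below 0.05, against 23.0% of all genes (10.6% higher and 12.3% lower). DESeq2 called 0 members, against 14.6% of the 14160 genes to which it gave an adjusted p. Shares given for DESeq2 below refer to these genes. In limma-voom 0 members passed (4.38% of the 15696). The groups overlapped for all 9, whereas 29.7% of all genes had groups that did not overlap. Log2 fold changes lay between -0.33 (Gbp6) and 0.36 (Gbp2), with 6 of 9 above 0 (49.1% of all genes), and their median was 0.01, beside -0.01 for all genes.

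**Figure D1:**
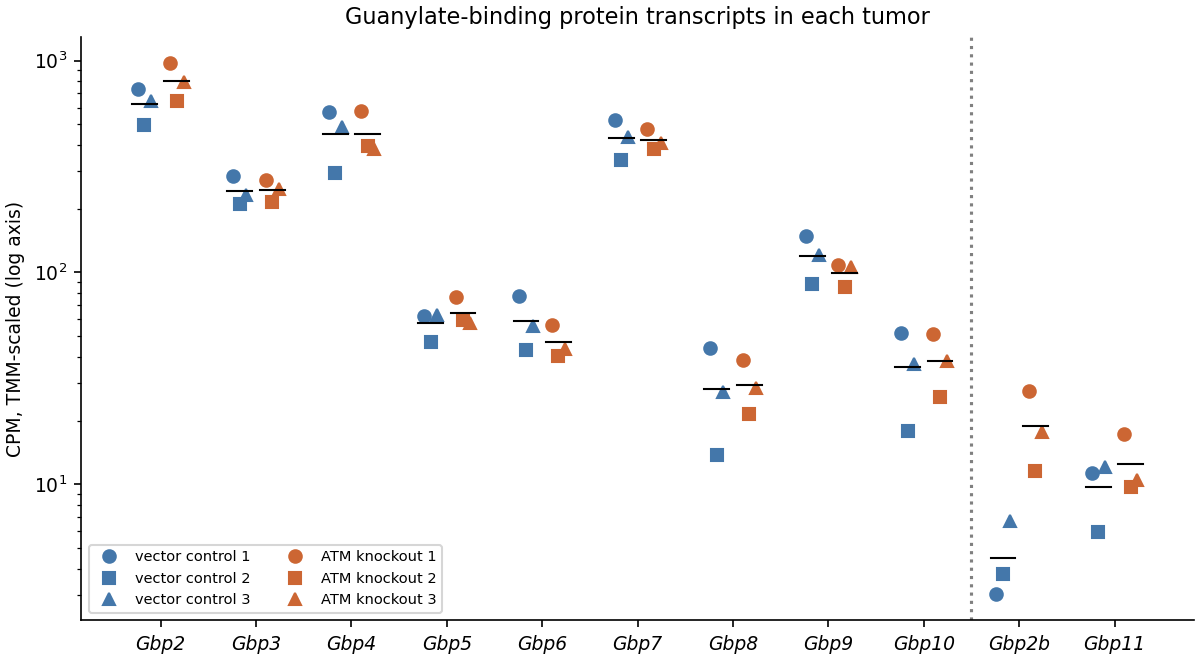
Level of each member and of the relatives Gbp2b and Gbp11 (right of the dotted line) in each tumor, in TMM-scaled CPM on a log axis; symbols mark the tumor number, colors the group, and black lines the group means. The groups overlap for all 9 members, vector control tumor 2 is the lowest control tumor for each of them, and the groups separate for Gbp2b.

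Gbp2, which carries a lipid anchor and attacks parasite vacuoles and bacteria in mouse cells, had the highest level per length of exon (chromosome 3, 142620602 to 142638008, GRCm38). Vector control tumors 1, 2 and 3 held 735, 495 and 645 CPM of it, and ATM knockout tumors 1, 2 and 3 held 971, 647 and 789 CPM. Knockout tumors 1 and 3 were above every control tumor, and knockout tumor 2 lay among them. The group means were 625 ± 121 and 802 ± 162 CPM (SD, n = 3 per group). On the log2 scale the difference was 0.36 ± 0.20 (SE), with an edgeR adjusted p of 0.343. The 95% interval of the ratio of knockout to control ran from 0.923 to 1.78.

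Gbp7, needed in mouse cells for the oxidative killing of bacteria and for control of parasites, was at 523, 339 and 438 CPM in controls and at 474, 380 and 409 CPM in knockouts (chromosome 3, 142530342 to 142550149). The knockout values all fell inside the control range (log2 fold change -0.04 ± 0.17, edgeR adjusted p = 0.924), and the sign turned when library size was the only scaling (0.01). Gbp3, recruited with its relatives to parasite vacuoles, was at 287, 210 and 231 CPM and at 272, 214 and 247 CPM (142560026 to 142573209). Its knockout values too were inside the control range (0.01 ± 0.14, edgeR adjusted p = 0.984). Gbp5, which promotes NLRP3 inflammasome assembly in mouse macrophages, was at 62.6, 47.2 and 62.7 CPM and at 76.5, 59.6 and 57.6 CPM (142493978 to 142522344). Only knockout tumor 1 was above the control range (0.17 ± 0.16, edgeR adjusted p = 0.598). Among these 4 genes the intervals were narrowest for Gbp3, whose ratio of knockout to control lay between 0.795 and 1.27.

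The 5 members on chromosome 5 spanned 105014150 to 105293698, all on the reverse strand. Gbp4, reported in mouse cells to restrain the interferon factor IRF7, was the most abundant of them per length of exon. It was at 569, 295 and 488 CPM in control tumors 1, 2 and 3 and at 581, 393 and 382 CPM in knockout tumors 1, 2 and 3. The means were 451 ± 141 and 452 ± 112 CPM (SD, n = 3 per group), and the log2 fold change was 0.00 ± 0.28 (edgeR adjusted p = 0.997). Its level varied 1.93-fold within the control group, so equal means came with a 95% interval of 0.622 to 1.62 for the ratio.
Gbp9, another protein of parasite vacuoles, was at 149, 87.8 and 121 CPM and at 109, 85.6 and 106 CPM, with the knockout tumors in the lower part of the control range or just under it (-0.26 ± 0.20, edgeR adjusted p = 0.523). Gbp6 was at 77.3, 43.0 and 55.9 CPM and at 56.6, 40.2 and 43.6 CPM, with knockout tumor 2 under the control range and the other knockout tumors inside it (-0.33 ± 0.24, edgeR adjusted p = 0.487). These were the members with the lowest fold changes. Without vector control tumor 1, the control tumor in which both were highest, the values were -0.06 for Gbp9 and -0.08 for Gbp6.

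Gbp8 and Gbp10 were the least certain members. Gbp8 was at 44.0, 13.8 and 27.2 CPM in controls and at 38.7, 21.5 and 28.6 CPM in knockouts. Gbp10 was at 52.0, 17.8 and 37.1 CPM and at 51.1, 25.9 and 38.2 CPM. The highest control tumor exceeded the lowest 3.2-fold for Gbp8 and 2.92-fold for Gbp10. Their log2 fold changes were 0.06 ± 0.44 and 0.11 ± 0.43 (edgeR adjusted p = 0.959 and 0.925), and the intervals of the ratio ran from 0.490 to 2.22 and from 0.514 to 2.26, and a ratio of 2 lay inside both. Without vector control tumor 1 the log2 fold changes were 0.53 and 0.49, and without vector control tumor 2 they were -0.23 and -0.18; they were below 0 also without ATM knockout tumor 1 (-0.18 and -0.155).

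**Figure D2:**
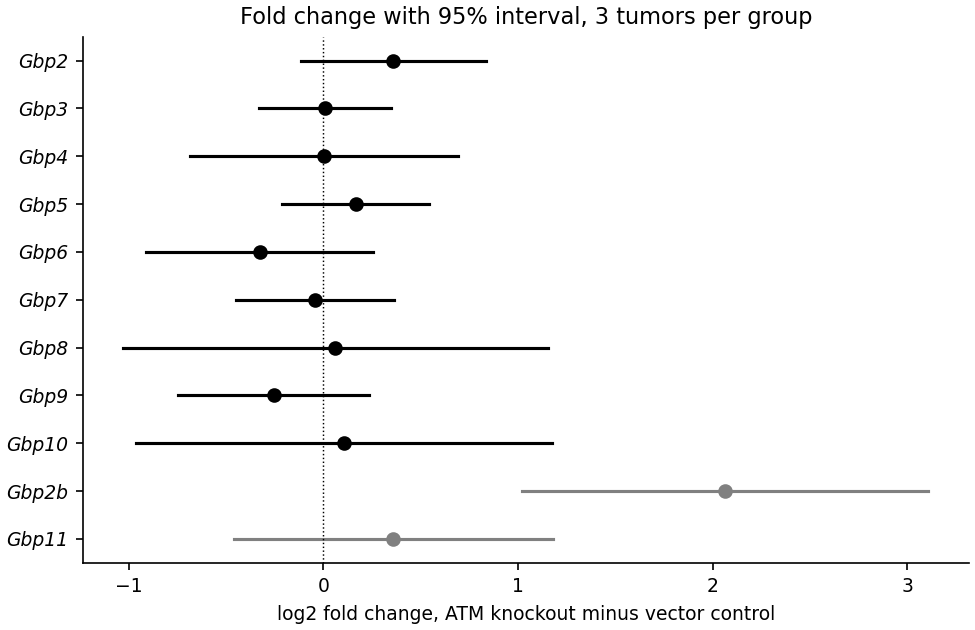
Log2 fold change, ATM knockout minus vector control, with its 95% interval from the edgeR fit for the 9 members (black) and the relatives Gbp2b and Gbp11 (grey), 3 tumors per group. All 9 member intervals cross 0, the widest being those of Gbp8 and Gbp10, and the interval of Gbp2b runs from 1.02 to 3.11.

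Gbp6 and Gbp10 could not be cleanly told apart by counting. Of the 75-base windows of the longest annotated Gbp10 transcript, 75.5% occurred in transcripts of other genes, mostly Gbp6 and Gm43302, an annotated gene that overlaps both. For Gbp6 this share was 55.2%, and for the other members it was between 0.983% (Gbp2) and 11.4% (Gbp7). Gm43302 covers 46.3% of the Gbp10 exon bases and 29% of those of Gbp6, and is listed at 0 counts in all 6 libraries, as is Gm43802 inside Gbp7. Reads that align to several places are listed at 0 in the files, so the counts of Gbp6 and Gbp10 may hold only their distinct parts. Counted together, the pair had a log2 fold change of -0.15 ± 0.31 (edgeR adjusted p = 0.844), which has the opposite sign to Gbp10 alone. Gbp4, Gbp8 and Gbp9 share their outermost exon bases (60 or 61), where a read cannot be given to 1 of them.

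Levels can be compared between members only per length of exon, here as CPM per kilobase over all 6 tumors. Gbp2 led at 284 ± 63.9 (SD, n = 6) and did not overlap the next, Gbp7 at 76.1 ± 11.7. Gbp7, Gbp3 (74.6 ± 9.49) and Gbp4 (60.2 ± 15.2) overlapped with their neighbors in this order, and Gbp7 was above Gbp3 in 4 of 6 tumors. Gbp9 followed at 21.2 ± 4.52 and overlapped neither Gbp4 above nor Gbp10 below it. Gbp10 (9.56 ± 3.499), Gbp5 (9.195 ± 1.43), Gbp6 (8.86 ± 2.33) and Gbp8 (8.41 ± 3.21) could not be ranked, each exceeding the next in 4 of 6 tumors. Counting only exon bases that belong to 1 gene put Gbp10 at 17.8 and Gbp6 at 12.5, so their place in the order depends on the overlapping annotation.

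Together the 9 members took 0.153% to 0.271% of all gene counts. Vector control tumors 1, 2 and 3 held 2499, 1550 and 2107 CPM of them in sum, and ATM knockout tumors 1, 2 and 3 held 2629, 1867 and 2100 CPM. The groups overlapped (2052 ± 477 and 2199 ± 390 CPM, SD, n = 3 per group). The members moved from tumor to tumor largely in step. For all 9, vector control tumor 2 was the lowest of the control tumors and ATM knockout tumor 1 the highest of the knockout tumors, and the highest of the 6 was vector control tumor 1 or ATM knockout tumor 1 for every member. Between control tumors Gbp8 and Gbp10 had the widest range, and Gbp3 and Gbp5 the narrowest (1.36-fold and 1.33-fold).

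Within this sum, the shares of 4 members separated the groups. Gbp2 made up 29.4%, 32.0% and 30.6% of the members' CPM in control tumors 1, 2 and 3 and 36.9%, 34.6% and 37.6% in knockout tumors 1, 2 and 3, with all 3 knockout tumors above all 3 control tumors. The means were 30.7% ± 1.27 and 36.4% ± 1.54 (SD, n = 3 per group; two-sided exact permutation p = 0.1, the smallest that 3 against 3 can give, 0.225 adjusted over the 9 shares). Gbp9 (5.79% ± 0.147 and 4.58% ± 0.448), Gbp7 (21.2% ± 0.607 and 19.3% ± 1.19) and Gbp6 (2.84% ± 0.228 and 2.13% ± 0.0451) had lower shares in every knockout tumor, with the same exact permutation p of 0.1. Of all tested genes set against the members' sum, 10.2% had groups that did not overlap, and of the members' shares 4 of 9 did not. These figures are not like for like. Each member is part of the sum and moved largely in step with it, which other genes need not do. The 4 of 9 can therefore not be read as an excess over 10.2%. Since the shares add up to a fixed total, they are also not independent. With the smallest possible p at 0.1, this test cannot pass 0.05. The Gbp2 share was higher by 5.08 to 6.58 percentage points whichever tumor was left out.

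**Figure D3:**
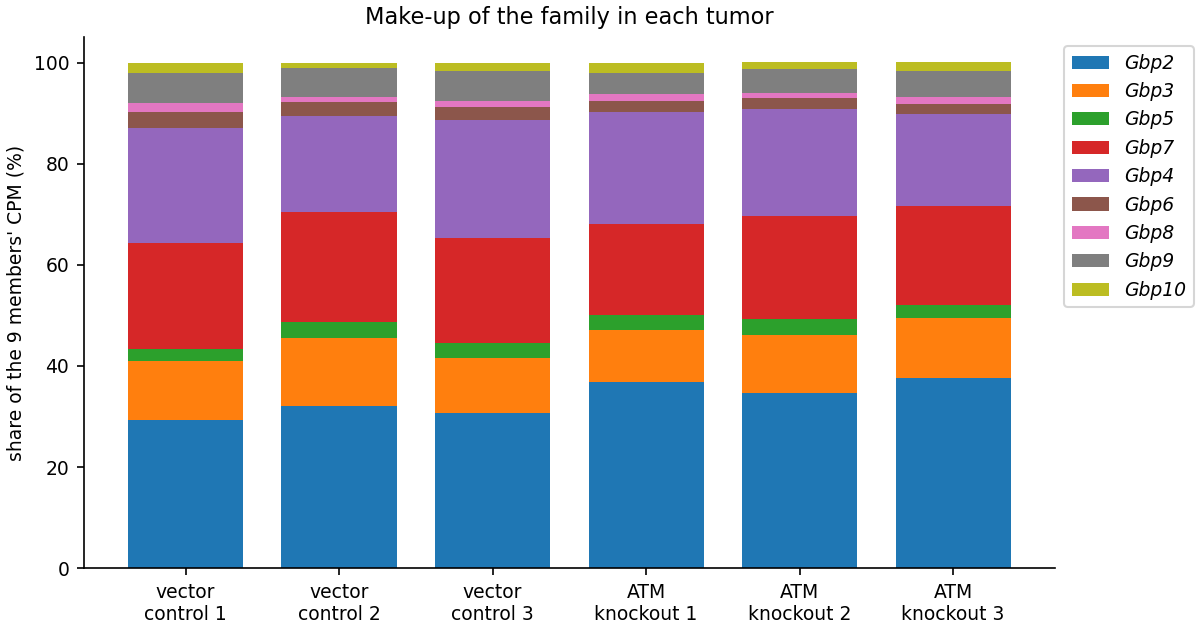
Share of each member in the summed CPM of the 9 members, in percent, 1 bar per tumor. The Gbp2 share lies between 29.4% and 32.0% in the control tumors and between 34.6% and 37.6% in the knockout tumors.

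Other genes whose symbol begins with Gbp were read in the same way. Gbp2b, the mouse Gbp1, lies next to Gbp2 (chromosome 3, 142594847 to 142619179) and acts with it on parasite vacuoles. Control tumors 1, 2 and 3 held 3.05, 3.80 and 6.71 CPM of it, and knockout tumors 1, 2 and 3 held 27.6, 11.5 and 17.7 CPM. Every knockout tumor was above every control tumor, a pattern that 14.3% of all genes showed in this direction. The counts were 69, 83 and 162 against 673, 322 and 516. The log2 fold change was 2.06 ± 0.43, a ratio of 4.18 with a 95% interval of 2.03 to 8.63, and its edgeR adjusted p of 0.0529 missed the threshold. DESeq2 gave an adjusted p of 3.33e-05 and limma-voom 0.0699, and over 15 alternatives the adjusted p ranged from 3.33e-05 to 0.183, with 4 below 0.05. When single tumors were left out, the log2 fold change stayed between 1.68 and 2.48. The lowest edgeR adjusted p of these fits was 0.0681, so none of them passed 0.05.

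Set against its neighbor Gbp2, Gbp2b took a larger part in every knockout tumor. The log2 ratio of Gbp2b to Gbp2 was -7.91, -7.03 and -6.59 in controls and -5.14, -5.81 and -5.48 in knockouts, a difference of 1.7 between groups that do not overlap (exact permutation p = 0.1, the smallest possible). This ratio rests on the same Gbp2b counts as above and is not a separate result. The share of all genes that separate the groups relative to Gbp2 was not counted. Gbp2 reads outnumbered Gbp2b reads between 35.2-fold and 241-fold per tumor, and 2.07% of the 50-base windows of the Gbp2 transcript occur in Gbp2b. Gbp11, a polymorphic pseudogene on chromosome 5, was at 9.77 ± 3.33 and 12.6 ± 4.17 CPM (SD, n = 3 per group; edgeR adjusted p = 0.601), and the pseudogene Gbp2-ps is listed at 0 in all 6 libraries. Within 5 Mb of the clusters, 1 of 50 tested genes around the chromosome 3 cluster and 2 of 87 around the chromosome 5 cluster passed the edgeR test, where 4.96% of all genes did, with medians of -0.03 and -0.09 for the log2 fold change.

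The signal chain that induces these genes was read from a list. Of 16 listed genes of interferon gamma signaling, 0 passed in edgeR and 0 in limma-voom. Without adjustment 2 were lower at p below 0.05, where 12.3% of all genes were, and DESeq2 found 2 lower, where it called 14.6% of all genes in either direction; both counts are near these shares. The median log2 fold change was -0.08, beside -0.01 for all genes. Ifng, the ligand, was read at low level, at 1.19, 0.732 and 1.90 CPM in control tumors 1, 2 and 3 and at 3.20, 1.503 and 1.68 CPM in knockout tumors 1, 2 and 3 (0.73 ± 0.45, edgeR adjusted p = 0.407). Irf1, which binds the response element, was at 269 ± 39.6 and 254 ± 37.5 CPM (SD, n = 3 per group; edgeR adjusted p = 0.819). The members of this list with the smallest p were Pias1, an inhibitor of interferon signaling, at 61.7 ± 4.77 and 51.2 ± 2.16 CPM (adjusted p = 0.105 in edgeR, 0.0401 in DESeq2), Nlrc5, the activator of MHC class I genes, at 468 ± 52.3 and 352 ± 47.7 CPM (0.122 and 0.0211), and Batf2 at 62.1 ± 14.5 and 43.7 ± 8.56 CPM (edgeR adjusted p = 0.234).

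The immunity-related GTPases, a companion family that responds to the same interferon and works on the same vacuoles, was read alongside. Of 14 listed genes 0 passed in edgeR, DESeq2 or limma-voom, and 0 had an unadjusted p below 0.05; the median log2 fold change was 0.05. Their summed level was 3610, 2390 and 3190 CPM in control tumors 1, 2 and 3 and 3970, 2980 and 2930 CPM in knockout tumors 1, 2 and 3. The sum of the 9 guanylate-binding proteins was between 0.627 and 0.717 of it in every tumor. The genes with the smallest p were Gm4951 (-0.32, edgeR adjusted p = 0.298), F830016B08Rik (1.01, 0.383) and 9930111J21Rik2 (-0.24, 0.535).

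Of 15 other targets of interferon gamma 0 passed in edgeR and 0 in limma-voom. Without adjustment 2 were higher and 1 lower at p below 0.05, beside 10.6% and 12.3% of all genes. DESeq2 called 2, beside 14.6% of all genes: Tap2 was higher (adjusted p = 0.00946) and Cxcl10 lower (5.62e-05). Cxcl10, a T cell attracting chemokine, was at 298, 179 and 242 CPM in the control and at 139, 120 and 103 CPM in the knockout tumors (-0.99 ± 0.21, edgeR adjusted p = 0.0525), with all knockout tumors below all control tumors, as in 15.4% of all genes. Tap2, a peptide transporter of antigen presentation, was at 123 ± 20.8 and 189 ± 35.6 CPM (SD, n = 3 per group; 0.61 ± 0.18, edgeR adjusted p = 0.104). Cxcl9, which shares its receptor with Cxcl10, was at 144 ± 11.2 and 192 ± 37.2 CPM (0.41 ± 0.14, edgeR adjusted p = 0.155). The guanylate-binding protein sum was between 0.906 and 1.13 of the summed CPM of these 15 genes in every tumor.

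By the shape of their level over the 6 tumors, the genes most like the members were sought among 11897 protein-coding genes (mean level 2 CPM or more), as those with the smallest root mean square difference in log2 CPM from the members' average after centering each gene. Tgtp1, an immunity-related GTPase, came first (0.0481), and its near copy Tgtp2 was among the first 5 (0.0946). Zfp456 (0.0780), Hist1h1c (0.0800) and Hscb (0.0944) were the others, and the median over all compared genes was 0.345. The members themselves lay 0.103 to 0.258 from their own average, farther than any of these 5 genes. The order is thus one of closeness to the average and not to single members. Tgtp1 kept a rank between 1 and 4 without any single tumor, while Tgtp2 fell as far as rank 29. This order, over 6 tumors, is a description.

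Of all marker genes below, 1 passed the edgeR test, 1 of the 7 melanocyte lineage markers, and it was lower in knockout tumors. Of all tested genes 4.96% passed, 2.75% as lower, and the marker lists together did not exceed these shares. The 6 pan-leukocyte markers summed to 282, 462 and 665 CPM in control tumors 1, 2 and 3 and to 573, 447 and 585 CPM in knockout tumors 1, 2 and 3, lowest in vector control tumor 1, where 8 of the 9 members were the highest of the control group. The members' sum was 8.86 times the pan-leukocyte sum in that tumor and between 3.17 and 4.59 times in the other 5. Monocyte and macrophage markers (10 genes) summed to 601 CPM in vector control tumor 1 and to between 1130 and 1680 CPM elsewhere. Melanocyte lineage markers were highest in that same tumor, at 27200 CPM, against 18800 to 21000 CPM in the others. Fibroblast markers summed to 293 CPM there and to between 1330 and 3030 CPM elsewhere.

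T cell markers (10 genes, 9 with a positive log2 fold change) summed to 44.0, 57.5 and 62.9 CPM in controls and to 124, 61.6 and 88.9 CPM in knockouts; 5 were higher at p below 0.05 without adjustment, where 10.6% of all genes were, and 0 with it. They were highest in ATM knockout tumor 1, the tumor with the highest members' sum, and lowest in vector control tumor 1, the tumor with the next highest. NK cell markers (7 genes) ranged from 25.3 to 40.2 CPM in control and from 26.8 to 57.4 CPM in knockout tumors. In vector control tumor 1, 5 of the 7 were lowest, but another was highest of the 6 tumors. Their sum was 33.4 CPM there and lowest in vector control tumor 2. Dendritic cell markers (7 genes) ranged from 23.0 to 50.8 CPM and from 45.4 to 54.4 CPM. Neutrophil markers (6 genes) ranged from 9.82 to 29.3 and from 14.4 to 16.5 CPM, and B and plasma cell markers (6 genes) from 5.57 to 53.5 and from 13.6 to 16.2 CPM. Endothelial markers (8 genes, all with a negative log2 fold change) ranged from 174 to 303 CPM in control and from 141 to 171 CPM in knockout tumors, narrowly without overlap. Of all single genes, 15.4% were lower in knockout tumors without overlap, a share that does not hold for sums. Of the 8 endothelial markers 3 were lower at an edgeR p below 0.05 without adjustment, where 12.3% of all genes were, and 0 with it. Skeletal muscle markers (8 genes) ranged from 27.1 to 7650 and from 637 to 7370 CPM, and adipocyte markers (5 genes) from 40.5 to 430 and from 32.6 to 94.4 CPM. Of the 6 keratinocyte markers Krt5, Krt14, Krt1 and Lor were at 0 in all 6 tumors. The part of these cell types in the members' levels was not tested.

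**Figure D4:**
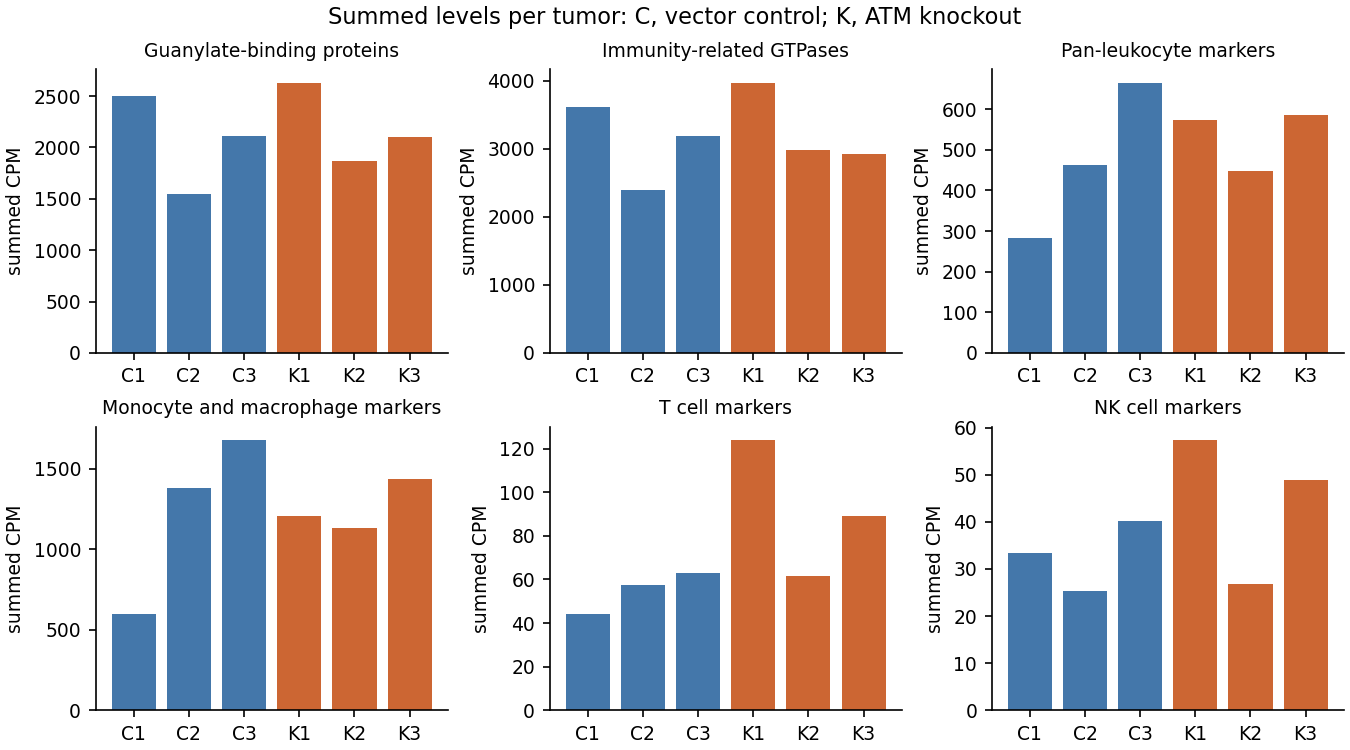
Summed CPM per tumor of the 9 guanylate-binding proteins, 14 immunity-related GTPases and 4 marker lists; C1 to C3 are vector control and K1 to K3 ATM knockout tumors, and each panel has its own axis from 0. Both GTPase families are high in C1 and K1 and lowest in C2, whereas pan-leukocyte and macrophage markers are lowest in C1.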

How the data were processed

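RNA of 6 tumors was sequenced, 3 per group. Each deposited file lists the raw counts of 1 library by gene; HTSeq, STAR, cutadapt, SAMtools and Trim Galore, without versions, and the builds GRCm38 and mm10 are named per the submitters' processing notes. Whether counting used strand was not given in the sources used here. All 55536 identifiers matched the GENCODE M21 annotation, which gave coordinates and exon lengths. Counter lines without a gene were not used: reads outside genes were 16.7% to 18.2% of those listed, reads on several genes 1.21% to 1.38%.

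Members and gene lists were chosen with earlier results of these data known. In edgeR 4.0.16, filterByExpr (count of 10, total of 15) removed low genes, TMM set the scale, and a robust quasi-likelihood fit tested genotype. Benjamini-Hochberg adjustment covered all 15696 genes, and calls were made below 0.05. Biological variation between tumors (common coefficient 27.6%), more than counting error, limits precision. The test was checked on simulated counts. Levels are CPM, log2 fold changes knockout minus control with SE. Genes outside the family were named by rule: called list members or the 3 with the smallest p, Ifng and Irf1 (1 further gene of this rule is not reported here), symbols starting with Gbp, and the 5 of most similar shape; Gm43302 and Gm43802 were added for their overlap. Alternatives included DESeq2 1.42.0, limma-voom (limma 3.58.1), other scalings and filters, and leaving out each tumor. The alternatives for Gbp2b, for shares and for Gbp6 with Gbp10 were chosen after seeing the data.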

Additional observations from a re-analysis of the deposited data

How the results depend on the processing

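No member was called under any of the alternatives run, 15 per member and 16 for Gbp6 and Gbp10. Without single tumors the log2 fold changes ranged from -0.0763 to 0.148 (Gbp3), -0.22 to 0.21 (Gbp4), -0.16 to 0.12 (Gbp7), -0.23 to 0.53 (Gbp8) and -0.18 to 0.49 (Gbp10), crossing 0, while Gbp2 (0.20 to 0.49) and Gbp5 (0.02 to 0.25) stayed above 0 and Gbp6 (-0.49 to -0.08) and Gbp9 (-0.40 to -0.06) below it. Signs also turned for Gbp7 when only library size set the scale (0.011) and for Gbp10 counted together with Gbp6 (-0.15); the cause was not tested. Over all genes, 778 passed in edgeR, 2070 in DESeq2, 1699 at an adjusted p below 0.10, and 2 to 1209 when single tumors were left out (1209, 28 and 110 without vector control tumor 1, 2 or 3, and 2, 42 and 196 without ATM knockout tumor 1, 2 or 3). DESeq2 called 2 of 16 interferon gamma signaling genes, 2 of 15 other interferon gamma targets, 1 of 10 inflammasome genes and 1 of 6 prenylation enzymes, where edgeR called none. These counts are near the 14.6% of all genes that DESeq2 called. The labels do not say that the replicate numbers pair the tumors. Deviations of same-numbered tumors from their group means correlated at 0.04, -0.27 and -0.42. Each control tumor correlated best with a knockout tumor of another number (0.19, 0.32 and 0.44), and of the knockout tumors only tumor 1 did so with its own number. With 3 tumors per group, these correlations cannot exclude that tumors of the same number shared a batch. For all 9 members tumor 1 of either group was the highest of the 6, and tumor 2 of either group the lowest. Whether this order follows a pairing was not tested. With the number as a replicate block 0 genes passed over all genes, members included. The intervals of Gbp8 and Gbp10 were the widest of the members. The median SE of the log2 fold change was 0.202 for the members and 0.147 for all tested genes.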

Other observations

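Gene groups on which guanylate-binding proteins act or depend gave no called member in edgeR. Of 10 inflammasome and pyroptosis genes, through which these proteins trigger cell death, 0 passed in edgeR and 0 in limma-voom. Without adjustment 1 was lower at p below 0.05: Il1b, the gene of interleukin 1 beta, which DESeq2 also called (adjusted p = 0.0407). Of all genes 12.3% were lower without adjustment and DESeq2 called 14.6%, so 1 of 10 does not exceed these shares. Il1b was at 4.91, 3.75 and 3.19 CPM in vector control tumors 1, 2 and 3 and at 1.80, 1.32 and 2.57 CPM in ATM knockout tumors 1, 2 and 3, without overlap, as in 15.4% of all genes on the lower side (log2 fold change -1.05 ± 0.31, edgeR adjusted p = 0.112). Gsdmd, which encodes the pore protein of pyroptosis, was at 40.4 ± 3.54 and 47.8 ± 4.82 CPM (SD, n = 3 per group; edgeR adjusted p = 0.238), and Casp1 at 15.4 ± 4.67 and 21.6 ± 5.33 CPM (edgeR adjusted p = 0.375).

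The enzymes that attach and trim the lipid anchor of some guanylate-binding proteins were listed as 6 genes. In edgeR 0 passed and in limma-voom 0. Without adjustment 1 was higher and 1 lower at p below 0.05 (10.6% and 12.3% of all genes). DESeq2 called 1 of the 6, beside 14.6% of all genes: Fntb, the catalytic subunit of farnesyltransferase, was higher (adjusted p = 0.0219). Fntb was at 30.4, 29.8 and 25.9 CPM in the control group and at 40.8, 40.3 and 33.5 CPM in the knockout group (0.41 ± 0.11, edgeR adjusted p = 0.0887). Its partner subunit Fnta was at 64.0 ± 5.71 and 54.3 ± 4.31 CPM (SD, n = 3 per group; edgeR adjusted p = 0.196), and Rce1, which trims the anchored end, at 15.4 ± 1.70 and 17.7 ± 2.39 CPM (edgeR adjusted p = 0.453).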
